A study of Rattus norvegicus with 6 samples.

Results

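Ier5, Sertad1, Ier2, Ier3, Dusp6, Dusp1, Egr1, Klf6, Nr4a1 and Myc are immediate early genes and feedback regulators of mitogen-activated protein kinase (MAPK) signalling, and their liver RNA was measured in rats given a brominated flame retardant or its vehicle. They are 10 of the 15284 rat genes that could be named on the array, and they were found by matching each probe's accession to the current rat gene symbol. The set was chosen by the measured difference between the groups, since Ier5 and Sertad1 were low after treatment, so the difference between the groups is given below for all 10 as a description, with no test of any single member. All 10 had a probe, 14 probes in all, and all 10 had a probe well above background on each of the 6 arrays, so none was lost to the filter on dim probes.

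The corn oil group was 3 male Sprague-Dawley (Crl:CD(SD)) rats given the vehicle alone. The treated group was 3 rats of the same strain and sex given 2,2-bis(bromomethyl)-1,3-propanediol (BBMP) at 1000 mg/kg/day. The labels give the time as 28 days in the series design and as 9 weeks in the treatment protocol, with animals bought at 5 weeks of age. Each liver was hybridised to 1 Agilent 1-colour array, so n = 3 per group, the animal is the replicate, and no other treatment or allele is named.

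Immediate early genes are switched on within minutes of a growth factor, hormone, stress or wounding signal, without new protein synthesis. The signal commonly runs from a receptor through RAS, RAF, MEK and ERK kinases to factors such as SRF with its ELK partners and CREB, which are already bound at the genes. Some of the products carry the response on, as the transcription factors EGR1, KLF6, NR4A1 and MYC do, and others end it, as the phosphatases DUSP1 and DUSP6 do by removing phosphate from MAP kinases. In liver these genes respond to feeding, glucocorticoids, regeneration and handling of the tissue.

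Signals are given as log2 of the processed spot signal minus log2 of that array's 75th percentile, so a value of 0 is a signal at that percentile and a step of 1 is a doubling. Levels are compared only within a probe, since the brightness of different probes depends on their sequence. Between 60.1% and 64.4% of 61573 probes per array were well above background, and arrays correlated with each other between 0.986 and 0.992. All corn oil arrays shared 1 slide and 1 scan and all BBMP arrays another, so the treatment effect and a slide or scan effect cannot be told apart. The liver label was borne out by 8 of 8 hepatocyte markers above background, albumin and transthyretin among them, with summed linear signals (in units of the 75th percentile) of 4930 to 5280 in corn oil and 4570 to 5120 in BBMP livers.

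After BBMP, 9 of the 10 genes had a lower mean and 1, Myc, a higher one, where 52.5% of all 28112 tested features were lower. The differences ranged from -1.15 for Ier5 to 0.08 for Myc with a median of -0.47, beside a median of -0.01 over all features. For 4 genes, Ier2, Ier3, Sertad1 and Dusp6, every treated liver lay below every corn oil liver, and 9.60% of all features did the same; 0 members lay wholly above, as 8.25% of all features did. No member passed limma's adjusted p of 0.05 over all features (0 of 10; 0.00711% of all features passed), and 5 of 10, all lower, had an unadjusted limma p under 0.05, as 6.10% of all features did in that direction. Nothing is read from these counts, because the same contrast led to the set. The limits are those of 3 animals per group: without corn oil 2 the number of members at an unadjusted p under 0.05 was 3.

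**Figure D1:**
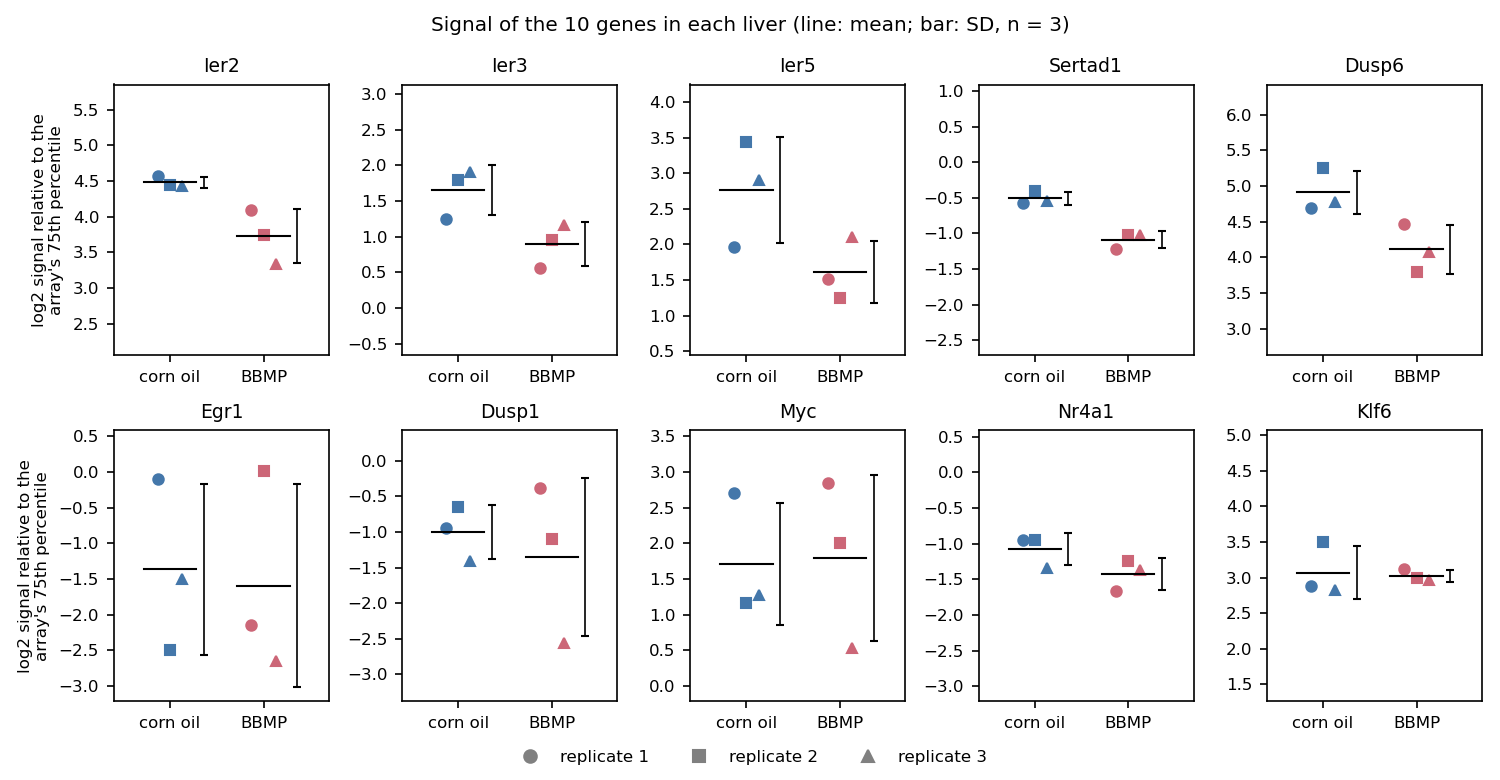
Log2 signal relative to the array's 75th percentile (vertical axis, each panel spanning the same number of log2 units) for the 10 genes in each liver; symbols mark the replicate number, horizontal lines the group mean and bars the SD (n = 3). Ier2, Ier3, Sertad1 and Dusp6 separate without overlap, while Egr1, Dusp1 and Myc spread over more than 2 log2 units among the BBMP livers.

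Ier5, an immediate early gene whose product works with the phosphatase PP2A on the heat shock factor HSF1, was the member with the largest difference. Its brightest probe read 1.97, 3.44 and 2.90 in corn oil livers 1 to 3 and 1.51, 1.25 and 2.10 in BBMP livers 1 to 3. The groups overlapped through corn oil 1, which lay below BBMP 3. The means were 2.77 ± 0.74 and 1.62 ± 0.44 (SD, n = 3), a difference of -1.15 ± 0.40 (SE), or 2.22-fold lower after BBMP. The difference ranged from -1.55 without corn oil 1 to -0.82 without corn oil 2.

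The other probes of Ier5 ran the same way. Probe A_64_P089025 read -1.92, -1.12 and -1.35 in corn oil and -2.56, -2.76 and -1.94 in BBMP livers, a difference of -0.96 (1.94-fold lower), with corn oil 1 and BBMP 3 parted by only 0.02. Probe A_44_P493045 was dim, with 2 corn oil livers and 0 BBMP livers well above background. With each BBMP liver set no lower than the lowest signal well above background on its array, it was 1.31-fold lower. This is not a bound, because the corn oil mean includes corn oil 1 (-5.58), itself not well above background. On both probes that were well above background in all livers, corn oil 1 was the lowest corn oil liver and BBMP 2 the lowest treated liver.

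**Figure D2:**
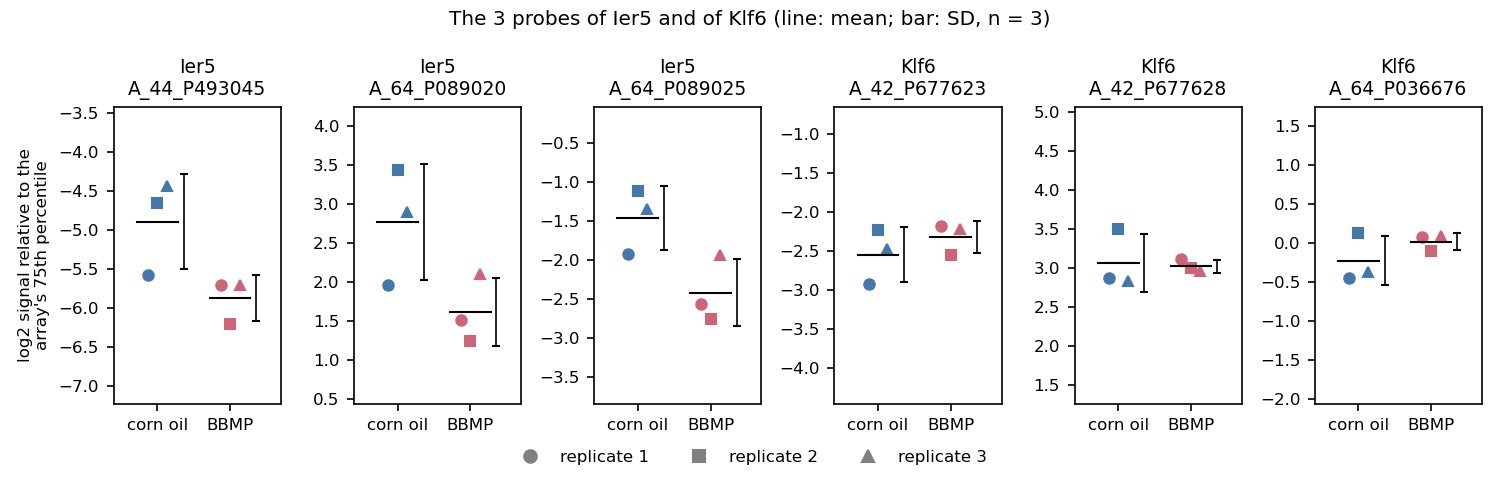
Log2 signal relative to the array's 75th percentile for the 3 probes of Ier5 and the 3 of Klf6 in each liver; symbols mark the replicate number, lines the mean and bars the SD (n = 3). Ier5 probes A_64_P089020 and A_64_P089025 differ by -1.15 and -0.96 between the groups, and the Klf6 probes by 0.23, -0.04 and 0.25. No difference is given for A_44_P493045, because no BBMP liver is well above background.

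Sertad1, which encodes a transcriptional coregulator that binds the cell cycle kinase CDK4, had the smallest spread between animals. It read -0.57, -0.40 and -0.54 in corn oil livers and -1.22, -1.02 and -1.02 in BBMP livers. The groups were parted by 0.45, more than the range within either group (0.17 and 0.19). The means were -0.50 ± 0.09 and -1.09 ± 0.11 (SD, n = 3), a difference of -0.59 ± 0.11 (SE) or 1.5-fold lower, and it stayed between -0.62 and -0.52 when any 1 array was left out. Its SD around the group means, 0.10, was larger than that of only 15.8% of features of like brightness (features were sorted by mean signal into 10 equal classes).

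Because these 2 genes led to the set, the 250 bases before their annotated starts are shown (RefSeq, GRCr8 build; Ier5 at chr13:69822543-69822792, minus strand; Sertad1 at chr1:91903047-91903296, plus strand). Capitals mark GC boxes (GGGCGG on either strand) in both and the TATA box (TATAAA) in Ier5.
Ier5: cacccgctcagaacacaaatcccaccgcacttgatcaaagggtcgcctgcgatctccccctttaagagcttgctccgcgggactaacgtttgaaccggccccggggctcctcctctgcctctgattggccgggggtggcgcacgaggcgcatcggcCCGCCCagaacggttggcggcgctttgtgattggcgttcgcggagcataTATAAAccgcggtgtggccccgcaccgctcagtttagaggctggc
Sertad1: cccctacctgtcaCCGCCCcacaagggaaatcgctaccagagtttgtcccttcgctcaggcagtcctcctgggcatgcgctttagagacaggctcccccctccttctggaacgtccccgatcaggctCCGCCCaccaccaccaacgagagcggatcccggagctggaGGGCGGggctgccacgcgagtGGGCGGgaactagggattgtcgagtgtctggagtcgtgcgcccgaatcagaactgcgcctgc
Ier5 held 1 TATA box, at position -45 from the start, as 12.93% of 33469 rat promoters did on either strand, and 1 GC box, while Sertad1 held 4 GC boxes and no TATA box of these letters. At least 1 GC box was present in 30.47% of all promoters.

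The named genes whose signals followed Ier5 most closely over the 6 arrays, among 10707 genes well above background on all of them, were Gas6 (Pearson r = 0.997), RGD1564712 (0.990), Zfp385a (0.988), Id3 (0.988) and Serinc3 (0.987). Gas6, a ligand of the TAM receptor kinases, differed by -0.75 ± 0.29 and Id3, an inhibitor of basic helix-loop-helix factors, by -0.92 ± 0.31 (SE). For Sertad1 they were Smarcc2 (0.993), Foxj2 (0.992), Cacnb3 (0.992), Zbtb37 (0.991) and Ndufv3 (0.988), with differences from -0.58 to -0.27. These are the closest of 10707 genes over 6 points that share arrays, so values near 1 are a description only. The members were farther off: Ier3 was 210th in likeness to Ier5 (0.897) and 264th to Sertad1 (0.894), and Ier5 and Sertad1 correlated at 0.826. All these r values include the difference between the groups, by which Ier5 and Sertad1 were chosen. Lower means among their closest genes follow in part from that choice. For deviations from the group means, r was 0.55 for Ier5 with Sertad1. It was 0.74 for Ier3 with Ier5 and 0.70 for Ier3 with Sertad1.

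Ier2, which encodes a nuclear protein induced early by growth factors, had a narrow range in corn oil and a wide one in BBMP livers. It read 4.57, 4.45 and 4.43 against 4.10, 3.74 and 3.34. The means were 4.48 ± 0.07 and 3.73 ± 0.38 (SD, n = 3), a difference of -0.75 ± 0.19 (SE) or 1.69-fold lower. Every treated liver was below every corn oil liver, by a gap of 0.33, and BBMP 3 was the lowest.

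Ier3 (IEX-1), a target of ERK that acts in cell survival and in turn affects ERK signalling, read 1.25, 1.8 and 1.91 in corn oil and 0.56, 0.96 and 1.16 in BBMP livers. The means were 1.65 ± 0.36 and 0.90 ± 0.30 (SD, n = 3), a difference of -0.76 ± 0.23 (SE) or 1.69-fold lower. The groups were parted by 0.08, between corn oil 1 and BBMP 3. Here BBMP 3 was the highest treated liver, opposite to its place for Ier2.

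Of the phosphatases, Dusp6 (MKP-3), which acts on ERK in the cytoplasm, was lower in every treated liver, and Dusp1 (MKP-1), a nuclear phosphatase of p38, JNK and ERK, was not. Dusp6 read 4.69, 5.26 and 4.78 in corn oil and 4.47, 3.79 and 4.07 in BBMP livers, with means of 4.91 ± 0.30 and 4.11 ± 0.34 (SD, n = 3). The difference was -0.80 ± 0.23 (SE), or 1.74-fold lower, with a gap of 0.22 between the groups. Dusp1 read -0.94, -0.65 and -1.41 against -0.39, -1.10 and -2.56, so the treated group held both the highest and the lowest liver. Its difference of -0.35 ± 0.54 (SE) rested on BBMP 3: without that array it was 0.26.

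Among the transcription factors, Egr1, a zinc finger factor, ranged widely in both groups. It read -0.10, -2.50 and -1.50 in corn oil and -2.15, 0.02 and -2.65 in BBMP livers, a 5.29-fold range in the one and 6.39-fold in the other. The group means of -1.37 ± 1.21 and -1.59 ± 1.42 (SD, n = 3) differed by far less than that spread (-0.22 ± 0.86, SE), and the sign turned when corn oil 1 (0.41), BBMP 1 (0.05) or BBMP 3 (0.31) was left out.

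Myc, the growth-promoting basic helix-loop-helix factor, behaved likewise. It read 2.70, 1.16 and 1.27 against 2.84, 2.01 and 0.53, a 2.91-fold range in corn oil and 4.98-fold in BBMP livers. Its difference was 0.08 ± 0.67 (SE), the only one above 0, and it ranged from -0.44 without BBMP 1 to 0.72 without BBMP 3, with negative values also without corn oil 2 (-0.19), corn oil 3 (-0.14) or BBMP 2 (-0.03). For Egr1 and Myc these animals give no direction.

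Nr4a1 (Nur77), an orphan nuclear receptor induced in liver by glucagon and cAMP, read -0.95, -0.95 and -1.34 in corn oil and -1.67, -1.24 and -1.37 in BBMP livers. The groups overlapped through corn oil 3 and BBMP 2, and the difference was -0.35 ± 0.17 (SE) or 1.28-fold lower. It was -0.23 without BBMP 1 and -0.20 with normexp background correction. Klf6, a zinc finger factor expressed in hepatocytes and stellate cells, read 2.88, 3.5 and 2.83 against 3.12, 3.00 and 2.96 on its brightest probe, a difference of -0.04 ± 0.19 (SE). Its other probes, A_42_P677623 and A_64_P036676, differed by 0.23 and 0.25, so the probes disagreed in sign and the mean over probes was higher by 0.15.

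The spread between animals of 1 group was not used to choose the genes. The SD around the group means had a median of 0.33 for the 10 genes and 0.18 for all features. Within its own class of brightness, the SD stood above 99.5% of features for Egr1 (SD 1.32), 99.3% for Myc (1.03), 98.8% for Dusp1 (0.83) and 97.3% for Ier5 (0.61). Dusp6 (92.5%), Ier3 (88.0%), Ier2 (86.0%), Klf6 (85.6%) and Nr4a1 (64.9%) followed, and Sertad1 (15.8%) stood alone at the low end. These are places in a ranking of 4 degrees of freedom each, with no test.

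The 10 genes did not vary as 1 block between animals. Of 45 pairs, 23 had a positive and 22 a negative Pearson r of their deviations from the group means (6 arrays, 4 degrees of freedom), and the median r was 0.0095. Ier2, Dusp1 and Myc went together over the 6 arrays: r was 0.93 for Ier2 with Dusp1, 0.90 for Ier2 with Myc and 0.78 for Dusp1 with Myc. In the BBMP livers all 3 ran from BBMP 1 at the top to BBMP 3 at the bottom. The corn oil livers did not share 1 order: corn oil 2 was the highest for Dusp1 and the lowest for Myc. Ier2 ranged over just 0.14 in corn oil, against 0.76 in BBMP livers. Ier2 with Dusp1 had the highest r of the 45 pairs and was picked for that. By this measure 1.04% of features followed Ier2 more closely than Dusp1 did, so nothing is read from that share. BBMP 3 carries part of the r values among Ier2, Dusp1 and Myc, since without it they were 0.70, 0.74 and 0.34.

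Ier3 and Ier5 went together (r = 0.74; 0.35 without corn oil 1) and against Myc, at -0.93 and -0.81. Ier2 and Ier3 both had lower means after BBMP, yet within groups they ran opposite (r = -0.77, and -0.96 to -0.59 without 1 array). Likewise Egr1 ran opposite to Ier5 (-0.88) and Dusp6 (-0.78), and Dusp6 went with Klf6 (0.75). All pairs share the same 6 arrays, and no p is given for them.

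**Figure D3:**
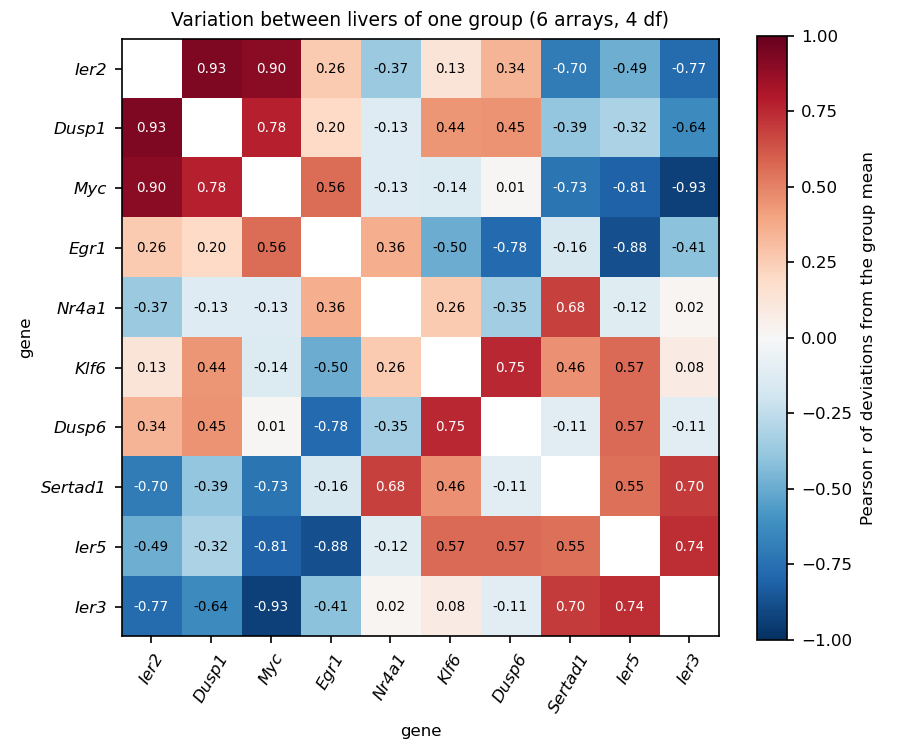
Pearson r, from -1 (blue) to 1 (red), of the deviations from the group mean for each pair of the 10 genes over 6 arrays (4 degrees of freedom). Ier2, Dusp1 and Myc have r of 0.78 to 0.93 with each other, though their order in the corn oil livers differs. Myc stands at -0.93 and -0.81 to Ier3 and Ier5.

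Ier2 and Dusp1, the pair with the highest r, were also the only ones of the 8 members with a promoter entry whose 250 upstream bases held a full cAMP response element, the CREB site TGACGTCA, and these are shown for that reason (RefSeq, GRCr8 build; Ier2 at chr19:40399123-40399372, plus strand; Dusp1 at chr10:17184603-17184852, plus strand). Capitals mark the element.
Ier2: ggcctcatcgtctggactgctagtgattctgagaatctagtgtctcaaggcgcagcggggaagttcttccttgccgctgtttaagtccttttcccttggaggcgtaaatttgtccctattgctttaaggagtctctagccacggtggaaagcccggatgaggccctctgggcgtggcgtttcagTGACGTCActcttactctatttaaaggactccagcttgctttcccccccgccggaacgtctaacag
Dusp1: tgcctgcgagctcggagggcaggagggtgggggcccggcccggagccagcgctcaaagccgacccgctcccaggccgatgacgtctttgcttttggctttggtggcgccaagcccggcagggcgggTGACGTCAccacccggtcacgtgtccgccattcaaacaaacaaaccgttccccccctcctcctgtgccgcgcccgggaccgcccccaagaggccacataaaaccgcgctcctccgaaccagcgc
The element began at position -66 in Ier2 and at -124 in Dusp1, and 1.59% of all 33469 promoters held it within the same length. The match was noticed after the correlation was seen, and it is a description of the letters.

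In all, 8 of the 10 genes had a promoter entry; Ier3 and Myc were the other two. Of the other motifs searched on both strands, the CArG box that binds SRF matched 2 times in Egr1 and 1 time in Klf6 (1.5% of all promoters). The E-box CACGTG matched in Dusp1 and Klf6 (5.59%), and the EGR site GCGNGGGCG in Nr4a1 (4.29%), where it overlapped 1 of 3 GC boxes. Dusp1 held 2 GC boxes and Klf6 1. The AP-1 site TGANTCA matched in none of the 8 (6.34% of all promoters).

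Close relatives of the members were measured as well. Of 19 relatives, 14 were tested and 0 passed limma's adjusted p over all features. Sertad3 lies in the same family as Sertad1 and read 0.77, 0.92 and 0.80 in corn oil against 0.45, 0.03 and 0.67 in BBMP livers, without overlap (difference -0.45 ± 0.17, SE; its other probe -0.43). Sertad2 differed by -0.01 ± 0.11, and Sertad4 differed by -0.51 ± 0.24 with overlapping groups. Ier5l, the paralog of Ier5, differed by -0.02 ± 0.19 on 1 probe and by 0.20 on the other.

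Of the orphan receptors beside Nr4a1, Nr4a2 read 0.58, 0.59 and 0.14 in corn oil and 0.02, -0.03 and -0.01 in BBMP livers, without overlap (-0.44 ± 0.14, SE). Nr4a3 was not well above background in all livers of either group. Among Krüppel-like factors related to Klf6, Klf4 was higher in every treated liver (0.29 ± 0.11), Klf2 differed by 0.44 ± 0.20 and Klf10 by -0.37 ± 0.39. Of the MAPK phosphatases, Dusp5 differed by -0.43 ± 0.25, Dusp4 by 0.40 ± 0.21 and Dusp16 by -0.06 ± 0.14. Mycl (0.02 ± 0.19) and the MYC partner Max (-0.23 ± 0.15) also had overlapping groups. Limma's adjusted p for these relatives lay between 0.409 and 0.999.

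The kinases of the signalling chain above the members were measured as RNA. Of 15 tested RAS, RAF, MEK, ERK and ERK-activated kinases, 4 were higher and 11 lower with a median of -0.04, and 0 passed limma's adjusted or unadjusted p of 0.05. Mapk3 (ERK1) differed by -0.03 ± 0.10, and the MEK genes Map2k1 and Map2k2 by 0.11 ± 0.10 and -0.07 ± 0.09 (SE). Without overlap, 2 of the 15 were lower and 0 higher, beside 9.60% and 8.25% of all features. Hras was 1 of the 2, at -0.21 ± 0.09 on its brightest probe, and its other probes differed by -0.17, -0.02 and -0.37. Phosphorylation, which sets the activity of these kinases, was not measured, and missing the threshold is no evidence that the groups were alike.

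Receptors and adaptors upstream of ERK were higher in 10 and lower in 12 of 22 cases (median -0.01), and differences ran from -0.61 to 0.62. At an unadjusted limma p under 0.05 there were 2 higher and 2 lower, beside 4.70% and 6.10% of all features. Without overlap, 2 were higher and 3 lower, beside 8.25% and 9.60% of all features. Of the receptors acting on hepatocyte growth, Egfr differed by -0.06 ± 0.20 and Met by -0.15 ± 0.16. The factors that drive immediate early genes were higher in 3 and lower in 10 of 13 cases (median -0.09), with Srf at -0.15 ± 0.13, Elk1 at 0.08 ± 0.29 and Creb1 at -0.05 ± 0.10. Without corn oil 2 these factors were higher in 6 and lower in 7 cases, and without BBMP 1 higher in 1 and lower in 12. Other inhibitors of ERK signalling were higher in 10 and lower in 5 of 15 cases (median 0.09), with Spry2 at 0.07 ± 0.19, Spry4 at 0.06 ± 0.30 and Spred1 at 0.09 ± 0.18. Dusp6, at -0.80, lay below these 15 on the brightest probe of each (-0.43 to 0.40), but the other probe of Dusp8, 1 of the 15, differed by -0.92.

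All 6 tested AP-1 and ATF genes had a lower mean after BBMP, where 52.5% of all features did, with a median of -0.78. The median was -0.42 without corn oil 2, with all 6 still lower. In 4 of the 6, every treated liver lay below every corn oil liver, beside 9.60% of all features, among them Junb at -0.78 ± 0.20 (SE). For Fosl2 and Atf3, also among the 4, the groups nearly touched. Fosl2 read -2.87 in corn oil 1 and -2.89 in BBMP 3, and Atf3 read -0.88 in corn oil 3 and -0.92 in BBMP 1. Of the further 34 early genes, 11 were higher and 23 lower (median -0.17, beside -0.01 for all features), and 6 were lower and 1 higher without overlap, beside 9.60% and 8.25% of all features. Without corn oil 2 the median was -0.06 and 19 were lower, and without BBMP 3 it was -0.09, again with 19 lower. The list included Btg2, an antiproliferative factor (-0.61 ± 0.34), Zfp36, which destabilises mRNA (0.65 ± 0.49), and Mcl1, a survival factor (-0.06 ± 0.12), each with overlap. These lists were written with earlier results known, in which AP-1 genes were already low.

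Partners and targets of MYC were higher in 11 and lower in 7 of 18 cases (median 0.03). Without BBMP 2 these were 6 and 12 (median -0.04), and without BBMP 1 they were 12 and 6 (0.06). The SERTAD family with its cell cycle partners was higher in 3 and lower in 8 of 11 (median -0.02). When any 1 array was left out, 6 or 7 of these 11 were lower. Glucocorticoid-responsive genes were higher in 7 and lower in 3 of 10 cases (median 0.23), with a median of -0.0063 without BBMP 2 and 0.57 without BBMP 3. Over all 9 lists, 140 different genes were tested, 57 were higher and 83 lower with a median of -0.03. None passed limma's adjusted p over all features, while at an unadjusted p under 0.05 there were 5 higher and 13 lower. For comparison, 4.70% of all features were higher and 6.10% lower at that p.

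**Figure D4:**
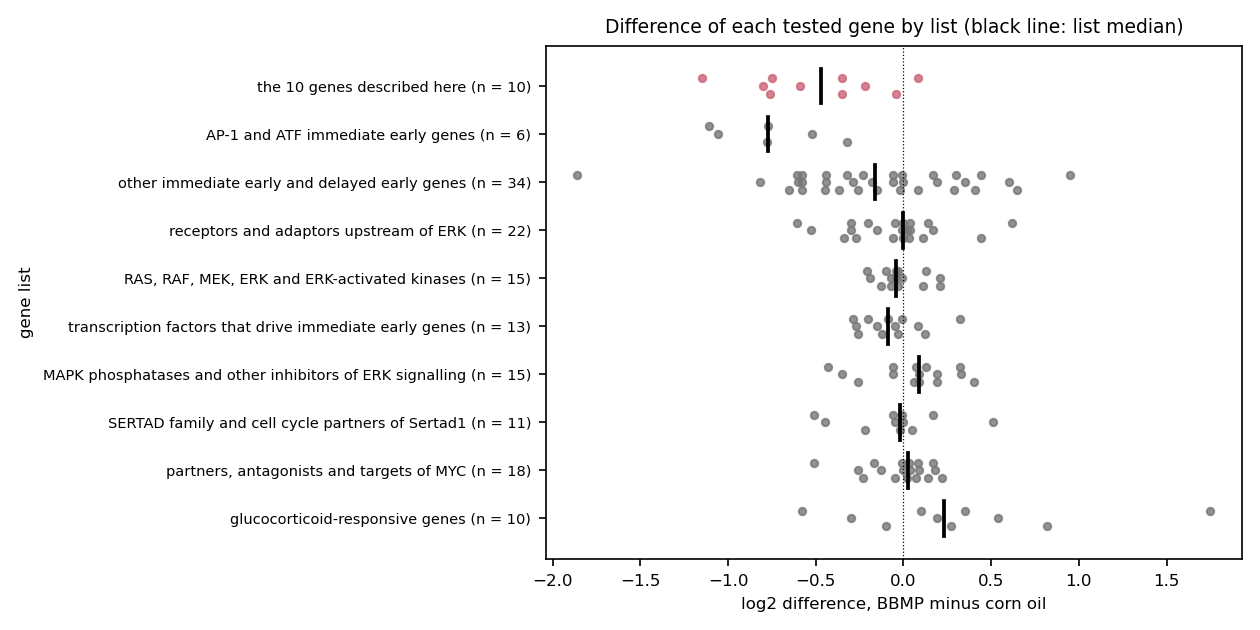
Log2 difference (BBMP minus corn oil, horizontal axis) of each tested gene, 1 point per gene, by list, with black lines at the list medians. The 10 genes (median -0.47) and the AP-1 and ATF genes (-0.78) lie to the left. The 10 were chosen by this contrast, and the AP-1 list was written with low values known, so nothing is read from their place. The lists of the signalling chain lie around 0, from -0.09 to 0.09. The further early genes stand at -0.17 and the glucocorticoid-responsive genes at 0.23.

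Markers of other liver cells moved with the groups in some cases. Of 8 stellate cell markers 6 were lower after BBMP (median -0.30), 3 of them without overlap, beside 9.60% of all features. The other 2 were higher, Des by 0.18 without overlap and Dcn by 0.17 with overlap. The summed linear signal of the 8 was 46.7 to 51.5 in corn oil and 38.4 to 44.6 in BBMP livers, without overlap. Bright probes weigh most in that sum, and the brightest, that of Col3a1, had overlapping groups. All 9 tested macrophage and Kupffer cell markers were higher on their brightest probe (median 0.33), where 52.5% of all features were lower. Their sums overlapped, at 100 to 159 in corn oil and 121 to 170 in BBMP livers. In all 9, corn oil 3 was the highest vehicle liver and BBMP 2 the lowest treated liver, so they are not separate observations. The other probe of Csf1r differed by -0.03, and the defining marker Timd4 was not analysed here. Both tested neutrophil markers, S100a8 and S100a9, were lower, with overlapping sums of 1.18 to 3.26 and 0.746 to 1.46, while Mmp8, Csf3r and Cxcr2 were not well above background. Endothelial, T and NK cell, B cell, cholangiocyte and erythroid markers overlapped in all 17 tested cases, and their medians ranged from -0.58 to 0.09. The part of these cells in the differences of the 10 genes was not tested, and in whole liver fewer cells of a type and less RNA per cell cannot be told apart.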

How the data were processed

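Liver RNA (0.2 µg per array) was labelled with Cy3 per the labels' protocols. Per the file headers, arrays of Agilent design 035170 (annotated on rn4) were scanned and extracted by Feature Extraction 10.7.1.1 into processed signals; the submitters' processing notes name version 10.7. The deposited scanner files and the authors' value table hold linear intensity, and the table's columns (medians 0.097 to 0.1005, direction and scale checked against the scanner values) were the processed signal divided by 1 constant per array.

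From 62976 spots, 1319 control spots and 84 spike-in probes were left out. Accessions matched to RefSeq (GRCr8) named 27460 probes. Log2 processed signal minus each array's 75th percentile (450.1 to 570.4 units) was analysed; outlier spots were left out and saturated ones kept. A feature was tested if well above background on all 3 arrays of a group, with the brightest probe per gene. Groups from the labels were compared with limma 3.58.1 (R 4.3.3), two-sided, Benjamini-Hochberg over 28112 features; the fit was tested on simulated data. Tables used Python 3.11.15, pandas 2.3.3 and numpy 2.4.6.

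Members and lists were chosen with earlier results of these data known. Named genes are all members, fixed relatives and pathway genes (some are not reported here), any list gene past the threshold, and the 5 genes most like Ier5 and Sertad1; Junb, Gadd45g and the genes of the closing paragraph on treated liver 3 were named after their values were seen. Alternatives were normexp (median spot signal, offset 50), quantile normalization, scaling to the median, testing all probes or just those above background on all 6 arrays, mean of probes, every probe, trend with robust moderation, the value table, the replicate block, and leaving out each array (for the medians of the lists, added after seeing the data). Same-numbered animals deviated together with r of 0.089, 0.016 and 0.072, so the numbers do not pair them. The number of arrays limits the precision.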

Additional observations from a re-analysis of the deposited data

How the results depend on the processing

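Of 28112 features, 2 passed limma's adjusted p of 0.05. The number was 0 with normexp (3252 at an unadjusted p under 0.05), 0 with the filter on all 6 arrays (2835), 1 with no filter (3308) and 0 to 4 without 1 array, with 0 without corn oil 3 (3002) and 4 without corn oil 2 (1934). It was 0 with the replicate block (3235), whose numbers do not pair the animals. The filter on all 6 arrays left 26581 features to test. What made these numbers differ between settings was not tested. No member and no gene of the pathway lists passed in any of the 16 settings. In the settings that keep all arrays, 4 members were lower without overlap, beside 9.60% of all features in the main fit. Without 1 array it was 4 or 5, but a smaller group separates more readily, and the share over all features is not given there. Nothing is read from these counts, since the same contrast led to the set. The median difference of the members was -0.47, from -0.47 to -0.36 in the settings that keep all arrays and from -0.63 to -0.47 without 1 array. Their median SD was 0.33, with 0.31 under normexp, 0.36 when blocked by replicate number, and 0.30 to 0.35 after leaving out 1 array. Their median r within groups went from -0.06 to 0.01 in other settings and from -0.09 to 0.27 without 1 array; with the block it was not run. Klf6 turned sign with normexp (0.0047) and with the mean of probes (0.15). Without 1 array, Egr1 ranged from -1.03 to 0.41, Dusp1 from -0.83 to 0.26, Klf6 from -0.16 to 0.17 and Myc from -0.44 to 0.72; the other 6 members kept their direction in all settings. The cause of these turns was not tested. For 1 probe of Ier5, signal near background leaves the size of the difference open.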

Other observations

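Treated liver 3 was the lowest BBMP liver for 5 of the 10 genes, Egr1, Ier2, Dusp1, Klf6 and Myc, and for 37.5% of all features. Counts of the same size stood elsewhere: BBMP 1 was the highest treated liver for 5 genes (30.2% of features) and corn oil 2 the highest vehicle liver for 5 (32.7%). The genes that follow were picked because treated liver 3 was low for them, so their values are examples only. Errfi1, a feedback inhibitor of the EGF receptor, read 8.18 and 8.20 in BBMP 1 and 2 and 6.34 in BBMP 3, against 7.71 to 7.93 in corn oil. Pck1, the rate-limiting enzyme of gluconeogenesis, read 6.74 and 6.87 against 6.03, with 6.79 to 6.9 in corn oil. The clock gene Per1, which glucocorticoids induce, read -1.73 and -1.63 against -2.93 on its brightest probe. Tsc22d3, which encodes the glucocorticoid-induced leucine zipper, read 3.21 and 3.79 against 1.60. Corn oil livers 1 to 3 read -1.87, -3.04 and -2.42 for Per1 and 2.85, 1.62 and 2.5 for Tsc22d3. For both genes corn oil 2 stood near BBMP 3, so a low value was not particular to treated liver 3.

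Of the early gene list, Gadd45g and Gadd45b, stress-induced regulators of p38 and JNK signalling, were its extremes. Their differences were -1.86 and 0.95, and neither passed limma's adjusted p over all features.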
